A study of Mus musculus with 12 samples.

Results

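The 2 receptors and 4 ligands of the platelet-derived growth factor (PDGF) system were followed through EGFR+ cells sorted from mouse glioblastomas (GBMs). The members were the rows of the deposited expression table whose symbol was *Pdgfra*, *Pdgfrb*, *Pdgfa*, *Pdgfb*, *Pdgfc* or *Pdgfd*, and all 6 were among the 18180 genes listed. Bulk RNA-seq was made from 4 populations, PDGFRA+, PDGFRA-, GAL1+ and GAL1-, each sorted from the same 3 tumors (T3, T4 and T5), which gave 12 libraries with 3 per population. The mice carried a conditional human EGFR transgene, were Cdkn2a-/- with a conditional luciferase reporter, and were kept on a mixed background (C57Bl/6J, 129S4, FVBN/J, SJL, Balb/cJ). GBMs arose in adult animals after a Cre lentivirus was injected into the striatum, and all 4 populations share these alleles and this virus. Every population was sorted as positive for EGFR, and then by an antibody to PDGFR (the receptor alpha chain in the study's naming) or to Galectin-1, the product of *Lgals1*. The cells of a population are defined by surface staining, so a library can hold several cell types.

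PDGF ligands are secreted dimers of cystine-knot growth factor chains, and their receptors are class III receptor tyrosine kinases that pair when a ligand dimer binds. PDGF-A and PDGF-C chains act mainly through PDGFRA, PDGF-B chains bind both receptors, and PDGF-D acts mainly through PDGFRB. In the brain PDGFRA marks oligodendrocyte precursors, whose division is driven by PDGF-A, and endothelial PDGF-B recruits pericytes that carry PDGFRB. In glioma the PDGFRA pathway is a common driver, and *Pdgfra* is a marker of tumor cells that resemble oligodendrocyte precursors.

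The promoters of *Pdgfra* and *Pdgfd* are shown because these members were called in opposite directions between the GAL1+ and GAL1- populations. Each run is the 250 bases before the RefSeq start of the gene on the plus strand of GRCm38.p6, an older build than the mm39 of the expression table, and no base of either lies in an annotated exon of its gene. Capitals mark the searched motifs. They are chr5:75152001-75152250 for *Pdgfra* and chr9:6168236-6168485 for *Pdgfd*.
Pdgfra: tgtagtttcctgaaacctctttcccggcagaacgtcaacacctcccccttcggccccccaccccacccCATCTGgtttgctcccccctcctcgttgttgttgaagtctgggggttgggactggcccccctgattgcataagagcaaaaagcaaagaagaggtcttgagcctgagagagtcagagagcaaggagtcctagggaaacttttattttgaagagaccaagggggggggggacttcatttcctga
Pdgfd: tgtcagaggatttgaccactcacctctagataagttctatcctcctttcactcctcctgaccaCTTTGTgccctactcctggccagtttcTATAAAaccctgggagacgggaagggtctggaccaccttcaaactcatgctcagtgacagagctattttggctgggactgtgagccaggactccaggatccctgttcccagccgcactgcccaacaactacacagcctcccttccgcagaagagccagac
The *Pdgfra* window held 1 E-box, spelled CANNTG, and this motif occurred in 66.2% of 32851 RefSeq promoter windows of that length, both strands searched. The *Pdgfd* window held 1 SOX-type motif, ACAAAG, read on the opposite strand, and 1 TATA box, TATAAA. These were present in 16.5% and 12.4% of windows. Neither window held a GC box (GGGCGG, in 32.7% of windows) or a CCAAT box (in 33.8%), and the E-box was not found in *Pdgfd* nor the SOX-type or TATA letters in *Pdgfra*. *Pdgfc* (chr3:81036166-81036415) shared the SOX-type letters, and both *Pdgfa* windows held GC boxes. The matches are letters in a window and were not related to binding.

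Levels are given as log2 CPM (the log2 of read counts scaled to a common library size), as deposited. Between 9851175 and 24117541 reads per library were recovered from these values, and 3 reads, taken as the floor of detection, lay at a log2 CPM between −2.99 and −1.44. The floor covers counting error only. Differences are log2 fold changes from limma with the tumor as a block, and a call means that limma's p, adjusted by the method of Benjamini and Hochberg across the 18180 genes, was under 0.05. *Lgals1*, the gene behind the GAL1 gate, was at 7.66 ± 0.27 (SD, n = 3) in GAL1+ and 6.38 ± 0.39 in GAL1- libraries. It lay between these in the PDGFRA- (7.10 ± 0.21) and PDGFRA+ libraries (6.84 ± 0.42). The row of the mouse gene *Egfr* was at 8.41 ± 0.68 in GAL1+, 10.51 ± 0.12 in GAL1-, 10.18 ± 0.29 in PDGFRA+ and 9.45 ± 1.12 in PDGFRA- libraries. The study labels the sorted cells hsEGFR+, for human EGFR, and reads of the human transgene were not measured apart from this row. *Ptprc*, the gene of the leukocyte antigen CD45, had a mean of 8.65 ± 0.40 in the GAL1+ libraries, 7.46 ± 1.06 in the PDGFRA- libraries, 6.92 ± 0.70 in the PDGFRA+ and 4.60 ± 0.79 in the GAL1- libraries, although the study describes the cells as CD45-. The PDGFRA- library of T5 stood apart from the other 2 of its population, with a summed level of 8 pan-leukocyte markers of 3053 CPM against 668 and 1108. Its *Egfr* was also lower, at a log2 CPM of 8.16 against 10.18 in T3 and 10.02 in T4. In bulk libraries a smaller share of a cell type and less RNA per cell cannot be told apart, and this holds for every level below.

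*Pdgfra*, which encodes PDGF receptor alpha, was high in GAL1- and PDGFRA+ cells and lowest in GAL1+ cells. Its log2 CPM in T3, T4 and T5 was 10.81, 10.34 and 10.49 in GAL1- cells and 10.81, 10.13 and 9.95 in PDGFRA+ cells. In PDGFRA- cells it was 10.11, 8.62 and 7.36, and in GAL1+ cells 8.95, 6.74 and 7.05. Every GAL1+ library lay below every PDGFRA+ and GAL1- library, whereas the PDGFRA- libraries spread from the level of the PDGFRA+ cells in T3 to that of the GAL1+ cells in T5. GAL1+ cells had 7.83-fold less *Pdgfra* than GAL1- cells (log2 fold change −2.97, SE 0.41, adjusted p = 0.000258), and less in 3 of 3 tumors. PDGFRA+ cells exceeded GAL1+ cells by a log2 fold change of 2.72 (SE 0.41, adjusted p = 0.00199), also in 3 of 3 tumors. PDGFRA- cells fell below GAL1- cells by 1.85 on the log2 scale (adjusted p = 0.0126). Its size varied between tumors, with log2 differences of −0.70 in T3, −1.72 in T4 and −3.13 in T5, and the adjusted p was 0.171 without T5, 0.0702 without its GAL1- library and 0.0502 without the GAL1- library of T4.

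The PDGFRA gate selects on the product of this gene, which partly sets the differences of PDGFRA+ and PDGFRA- cells from the GAL1 populations. *Pdgfra* between PDGFRA+ and PDGFRA- cells is a check of the sort. The log2 differences in T3, T4 and T5 were 0.70, 1.51 and 2.59. It was positive in each tumor, but its mean of 1.60 (95% interval 0.67 to 2.52) had an adjusted p of 0.249. Limma's unadjusted p was 0.00336, and 0 of 18180 genes were called in this comparison. In the order GAL1-, PDGFRA+, PDGFRA-, GAL1+ no 2 neighbours were called different. The last pair, PDGFRA- against GAL1+, had a log2 fold change of 1.12 (adjusted p = 0.0818), and of 1.63 (adjusted p = 0.0101) without the PDGFRA- library of T5. The first pair differed by −0.25 on the log2 scale, PDGFRA+ over GAL1-, with an interval from −1.18 to 0.67.

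*Pdgfrb*, which encodes the receptor beta of pericytes and other mural cells, was low in GAL1- cells and higher in the other 3 populations. Its log2 CPM in T3, T4 and T5 was 2.65, 3.45 and 1.76 in GAL1- cells and 5.38, 5.68 and 4.30 in GAL1+ cells. PDGFRA- cells had 5.19, 4.89 and 4.16 and PDGFRA+ cells 5.26, 5.14 and 3.14. The lowest PDGFRA+ value, from T5, lay within the range of the GAL1- libraries, and no GAL1+ or PDGFRA- value did. T5 was lowest in all 4 populations. GAL1+ cells had 5.66-fold more *Pdgfrb* than GAL1- cells (log2 fold change 2.50, SE 0.27, adjusted p = 7.3e-05). PDGFRA- and PDGFRA+ cells exceeded GAL1- cells by log2 fold changes of 2.13 (adjusted p = 0.000995) and 1.89 (adjusted p = 0.00286), the latter with an adjusted p of 0.0918 without T3. In the order GAL1+, PDGFRA-, PDGFRA+, GAL1- only the last step was called. GAL1+ and PDGFRA- cells, and PDGFRA- and PDGFRA+ cells, had adjusted p-values of 0.337 and 0.758.

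**Figure D1:**
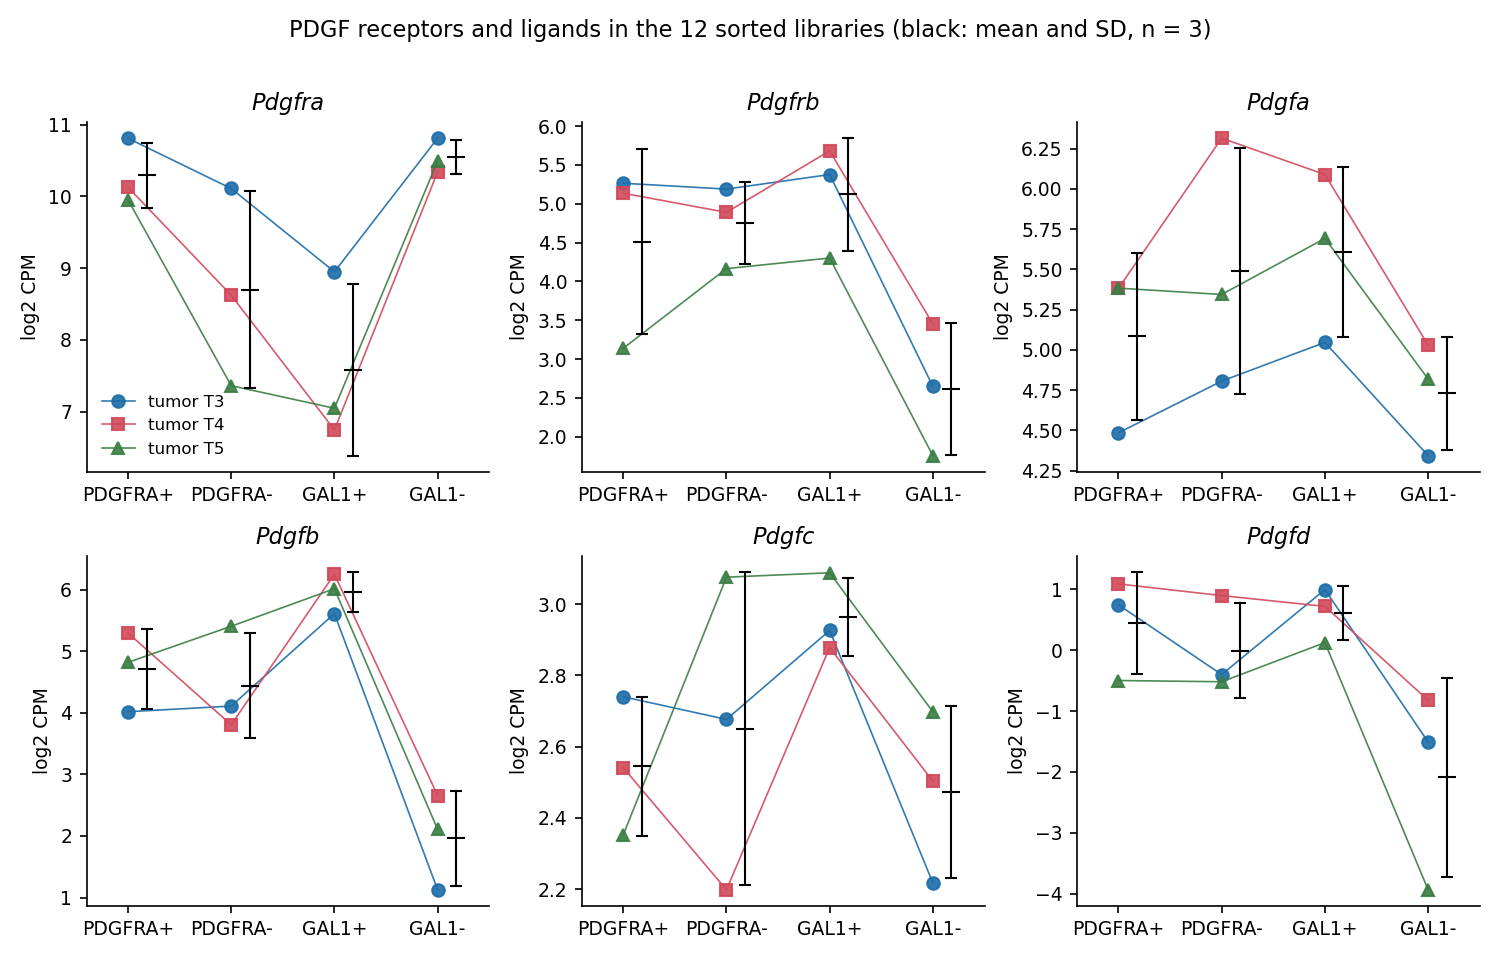
Log2 CPM of the 6 members (vertical axes, each with its own range) in the PDGFRA+, PDGFRA-, GAL1+ and GAL1- libraries of tumors T3, T4 and T5; coloured lines join libraries of one tumor and black bars give the mean and SD of 3 libraries. *Pdgfra* dips in GAL1+ cells, from a mean of 10.55 in GAL1- to 7.58, while *Pdgfrb*, *Pdgfb* and *Pdgfd* are lowest in GAL1- cells.

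*Pdgfa* encodes the A chain, the main mitogen of oligodendrocyte precursors. It varied least between populations among the called members. Its log2 CPM in T3, T4 and T5 was 5.05, 6.09 and 5.69 in GAL1+ cells and 4.34, 5.03 and 4.82 in GAL1- cells. The values in PDGFRA- cells were 4.81, 6.32 and 5.34, and those in PDGFRA+ cells 4.49, 5.38 and 5.38. The GAL1+ and GAL1- ranges did not overlap, though T3 of the first and T4 of the second lay side by side. GAL1+ cells had 1.84-fold more *Pdgfa* than GAL1- cells (log2 fold change 0.88, SE 0.18, adjusted p = 0.00227), higher in 3 of 3 tumors. PDGFRA- over GAL1- cells gave a log2 fold change of 0.76 (adjusted p = 0.0161) and PDGFRA+ over GAL1+ cells one of −0.53 (adjusted p = 0.0428), with overlapping ranges in both. When a tumor was left out, the first of these had an adjusted p between 0.0705 and 0.0853, and the second between 0.0738 and 0.205. In the order GAL1+, PDGFRA-, PDGFRA+, GAL1- no 2 neighbours were called different, at adjusted p-values of 0.653, 0.423 and 0.368.

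*Pdgfb*, the B chain made by endothelium, platelets and macrophages, showed the widest difference of the 6 members. Its log2 CPM in T3, T4 and T5 was 5.61, 6.25 and 6.01 in GAL1+ cells and 1.13, 2.66 and 2.11 in GAL1- cells. PDGFRA+ cells had 4.02, 5.29 and 4.82, and PDGFRA- cells had 4.11, 3.80 and 5.40. GAL1- libraries lay below all others and GAL1+ libraries above all others, with the PDGFRA+ and PDGFRA- libraries mixed in between. GAL1+ cells had 15.9-fold more *Pdgfb* than GAL1- cells (log2 fold change 3.99, SE 0.37, adjusted p = 4.9e-05). The log2 fold change was 2.75 (adjusted p = 0.00255) for PDGFRA+ and 2.48 (adjusted p = 0.00200) for PDGFRA- over GAL1- cells, 3 of 3 tumors each. *Pdgfb* was lower in PDGFRA+ and PDGFRA- than in GAL1+ cells, by log2 fold changes of −1.25 (adjusted p = 0.0276) and −1.52 (adjusted p = 0.0246). The first call ended without T3, T5, the PDGFRA+ library of either or the GAL1+ library of T3 or T4, at adjusted p-values up to 0.210. The second ended without T3, T4, the PDGFRA- library of T3 or any GAL1+ library, at up to 0.156. Without T3 the PDGFRA+ and PDGFRA- comparisons with GAL1- cells also missed the threshold, at 0.0890 and 0.0545, and without T4 the latter rose to a log2 fold change of 3.14 (adjusted p = 0.000156). PDGFRA+ and PDGFRA- cells had an adjusted p of 0.805 between them.

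*Pdgfc*, a ligand chain with a CUB domain that must be cleaved before it binds, had no called difference in any of the 6 comparisons. Its log2 CPM in T3, T4 and T5 was 2.93, 2.88 and 3.09 in GAL1+ cells and 2.22, 2.50 and 2.70 in GAL1- cells. In PDGFRA+ cells it was 2.74, 2.54 and 2.35 and in PDGFRA- cells 2.68, 2.20 and 3.08. All GAL1+ values lay above all GAL1- values. The log2 fold change was 0.49, with a 95% interval from −0.01 to 1.00 and an adjusted p of 0.0874. The other 5 log2 fold changes lay between −0.42 and 0.18.

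*Pdgfd*, the D chain, which is also released by cleavage of a CUB domain, was the scarcest member, with 1.12 to 34.2 recovered reads per library. Its log2 CPM in T3, T4 and T5 was 0.99, 0.72 and 0.12 in GAL1+ cells and −1.51, −0.82 and −3.93 in GAL1- cells. It was 0.74, 1.09 and −0.50 in PDGFRA+ cells and −0.40, 0.89 and −0.52 in PDGFRA- cells. All GAL1- values lay below all others, and the GAL1- library of T5 was under the floor of 3 reads. GAL1+ over GAL1- cells gave a log2 fold change of 2.70 (SE 0.51, adjusted p = 0.00152), and of 2.10 (adjusted p = 0.00545) without the library under the floor and 2.02 (adjusted p = 0.0166) without T5. PDGFRA+ and PDGFRA- cells exceeded GAL1- cells by log2 fold changes of 2.53 (adjusted p = 0.0130) and 2.08 (adjusted p = 0.0192). The first missed the threshold without any of the tumors (adjusted p from 0.0512 to 0.143) or any of the PDGFRA+ libraries (from 0.0562 to 0.0640), and became 1.93 (adjusted p = 0.0449) without the GAL1- library of T5. Quantile normalization lowered the 2 log2 fold changes to 1.75 (adjusted p = 0.0448) and 1.34 (adjusted p = 0.0491). The second missed it without any of the tumors (from 0.0540 to 0.175), and became 1.48 (adjusted p = 0.0777) without the GAL1- and 1.79 (adjusted p = 0.0900) without the PDGFRA- library of T5. Between the other 3 populations the adjusted p-values of *Pdgfd* were 0.405 to 0.819.

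Across the 6 members, 5 were called between GAL1+ and GAL1- cells, 4 higher and 1 lower in GAL1+ cells, where 58.2% of all genes were called (28.9% higher and 29.3% lower). The ranges of all 6 did not overlap in that comparison, as was the case for 60.6% of genes. The median log2 fold change of the members was 1.69, and that of all genes −0.03. PDGFRA- over GAL1- cells gave 5 called members, 4 higher and 1 lower, against 23.1% of genes (16.2% higher and 6.88% lower), with a median of 1.42 against 0.02. The ranges of 4 members did not overlap there, against 28.9% of genes. PDGFRA+ over GAL1- cells gave 3, all higher, against 8.27% of genes (8.26% higher and 0.0110% lower), with a median of 1.12 against −0.02. Here the ranges of 2 members did not overlap, against 24.6% of genes.

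PDGFRA+ over GAL1+ cells gave 3 called members, *Pdgfra* higher and *Pdgfa* and *Pdgfb* lower, against 38.0% of genes (20.9% higher and 17.0% lower), with a median of −0.47. In 3 members the ranges did not overlap, against 46.0% of genes. PDGFRA- over GAL1+ cells gave *Pdgfb* alone, lower, against 20.1% of genes (13.2% higher and 6.91% lower), with a median of −0.34. *Pdgfb* was also the 1 member without overlap, against 18.7% of genes. PDGFRA+ over PDGFRA- cells gave none, where the percentage of genes called by limma was 0. At an unadjusted p under 0.05 this comparison had 2 members, *Pdgfra* and *Pdgfa*, and 11.8% of genes. All 6 members overlapped, while 6.94% of genes did not. The comparisons share populations and are therefore not independent of each other. In those with PDGFRA+ or PDGFRA- cells, *Pdgfra* is counted although the gate selects on its product.

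**Figure D2:**
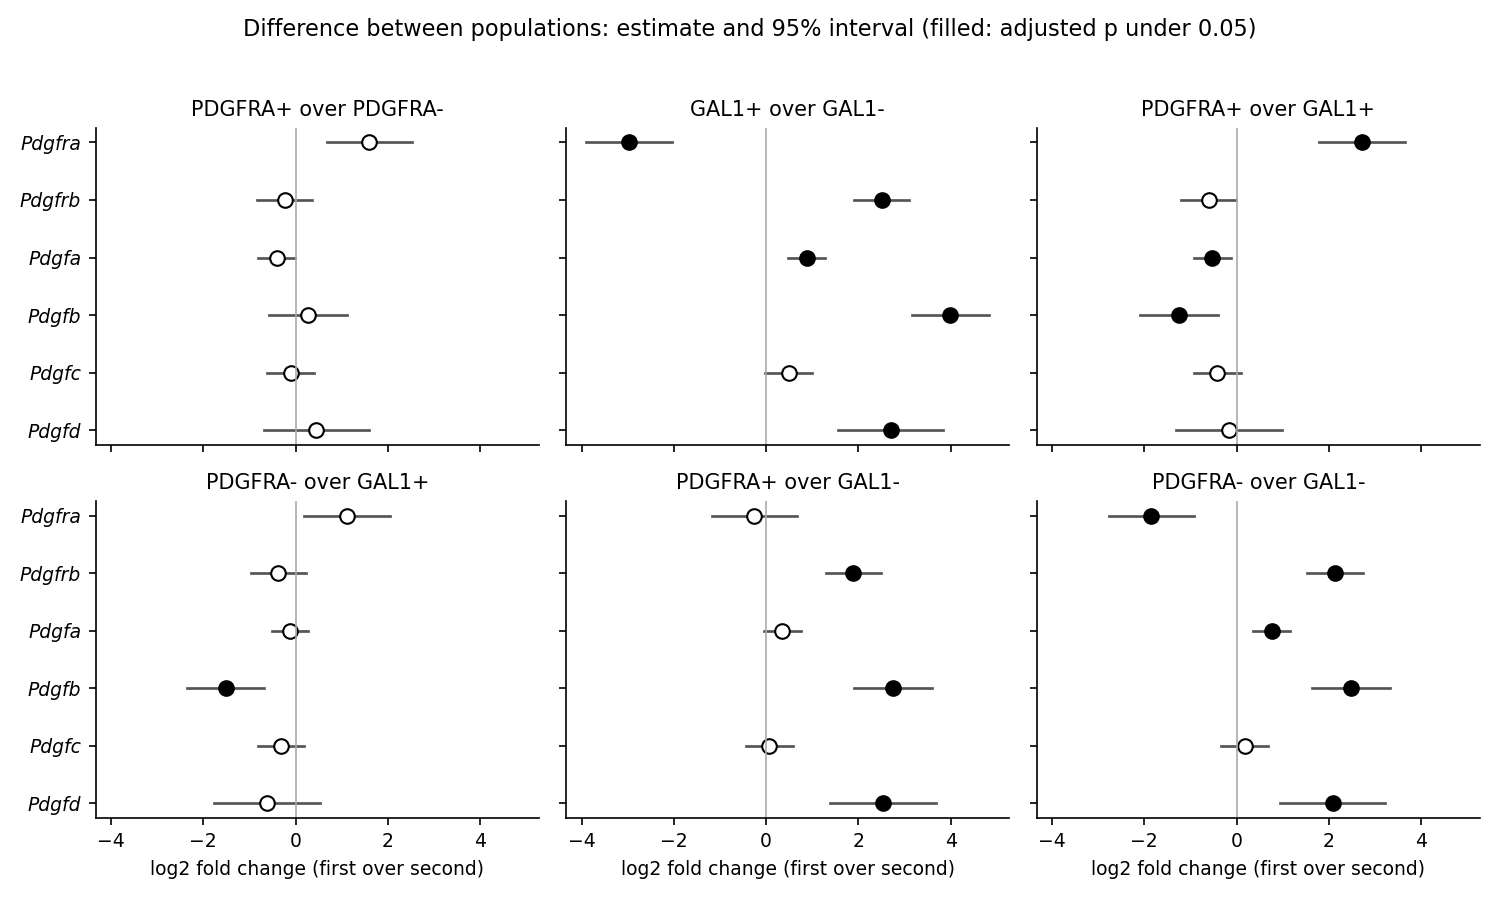
Log2 fold change (horizontal axes) of each member in the 6 comparisons between populations, with the 95% interval of the limma fit as a line; filled points had an adjusted p under 0.05. The GAL1+ over GAL1- panel has *Pdgfra* at −2.97 and *Pdgfb* at 3.99, and the PDGFRA+ over PDGFRA- panel has no filled point.

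To compare levels between genes, CPM was divided by the length of each gene's exons in kilobases (GENCODE M21, GRCm38). Per kb, *Pdgfra* was the more abundant of the 2 receptors in every library. The ratio of *Pdgfra* to *Pdgfrb* CPM per kb was 157, 64.9 and 235 in GAL1- cells of T3, T4 and T5 and 25.5, 17.4 and 61.8 in PDGFRA+ cells. It was 16.6, 7.28 and 5.02 in PDGFRA- cells and 6.50, 1.14 and 3.67 in GAL1+ cells, so the receptor transcripts were near parity in the GAL1+ cells of T4. Within each tumor the ratio fell in the order GAL1-, PDGFRA+, PDGFRA-, GAL1+. *Pdgfra* reached 149 CPM per kb (geometric mean) in GAL1- cells, above 99.1% of the genes with a length in each of the 3 libraries, and 19.1 CPM per kb in GAL1+ cells.

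Ligand transcripts were mostly *Pdgfa* and *Pdgfb*. Of the summed CPM per kb of the 4 ligands, *Pdgfa* made up 80.9%, 78.9% and 79.6% in GAL1- cells of T3, T4 and T5 and 43.4%, 51.9% and 48.6% in GAL1+ cells. The share of *Pdgfb* was 6.47%, 11.4% and 9.07% in GAL1- cells and 48.0%, 43.4% and 45.5% in GAL1+ cells. In PDGFRA+ cells *Pdgfb* made up 30.1% to 38.3%, and in PDGFRA- cells 28.4%, 11.0% and 40.6%. *Pdgfc* made up 2.94% to 11.3% and *Pdgfd* 0.126% to 4.06% over the 12 libraries. The sum of the ligands was 24.4, 42.0 and 34.1 CPM per kb in GAL1+ cells and 8.04, 13.3 and 11.4 in GAL1- cells. Every GAL1+ sum lay above every GAL1- sum. These ratios and shares restate the members' levels and were not tested.

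**Figure D3:**
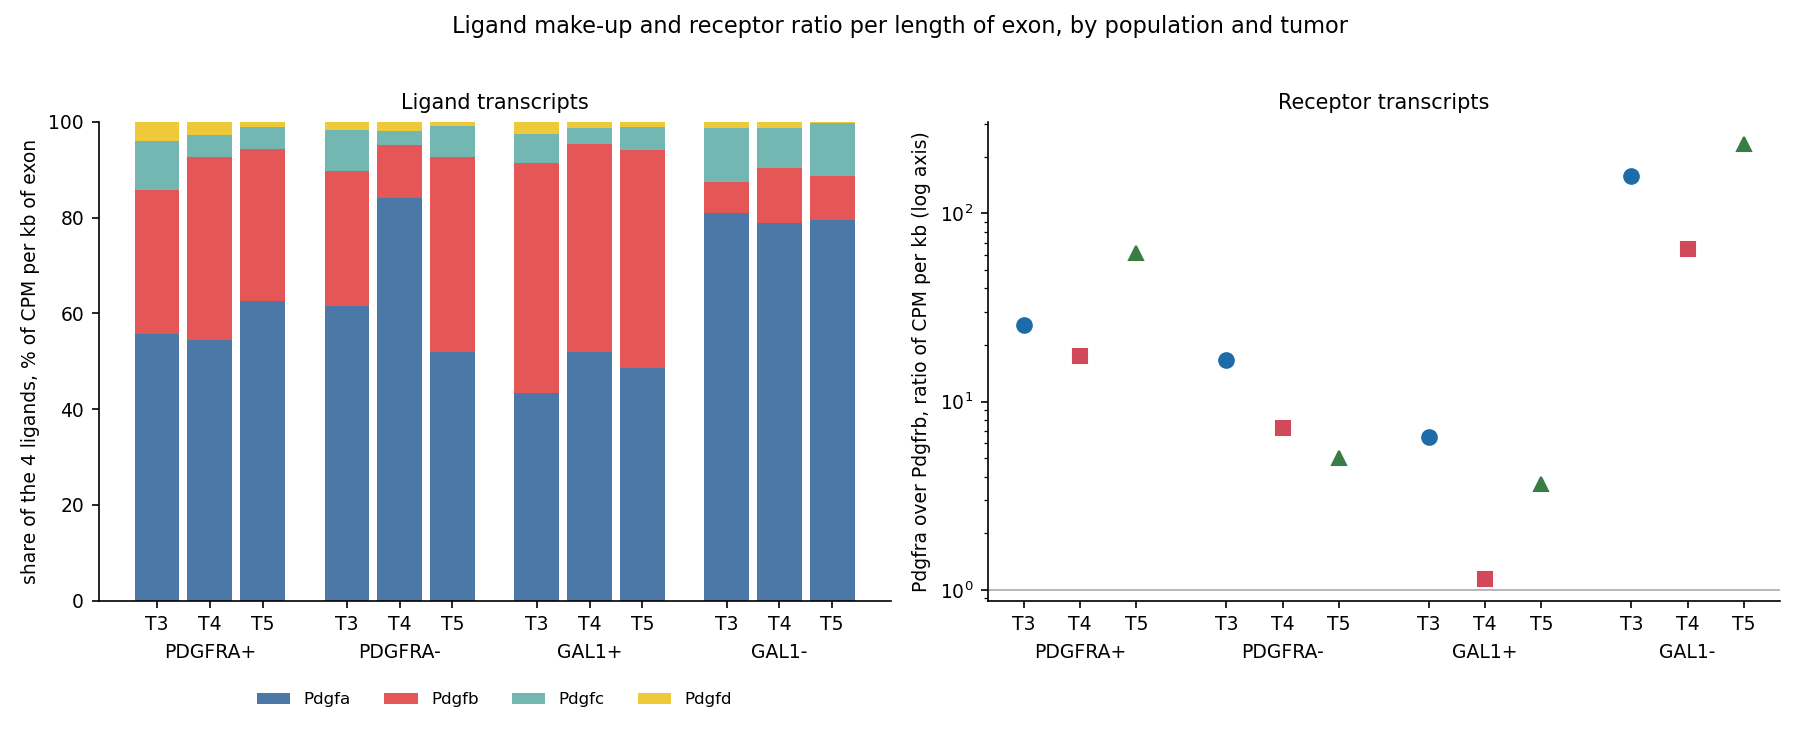
Left, share of each ligand in the summed CPM per kb of exon of the 4 ligands (percent, stacked to 100) in each library; right, ratio of *Pdgfra* to *Pdgfrb* CPM per kb on a log axis, with a grey line at 1. *Pdgfb* is 43.4% to 48.0% of ligand transcripts in GAL1+ cells and 6.47% to 11.4% in GAL1- cells, and the receptor ratio runs from 1.14 to 235.

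PDGF chains are made as precursors, and the enzymes that process them were examined next. PDGF-A and PDGF-B are cut inside the cell by furin-type convertases, PDGF-C outside it by tissue plasminogen activator (*Plat*), and PDGF-D by urokinase (*Plau*) and matriptase (*St14*). Of 6 measured genes, 3 rose and none fell in GAL1+ over GAL1- cells, a share called below the 58.2% of all genes there (28.9% higher). The median log2 fold change of the list was 1.26, against −0.03 for all genes. *Plau* rose by a log2 fold change of 4.85 (SE 0.46, adjusted p = 4.9e-05), *St14* by 4.05 (SE 0.43, adjusted p = 7.0e-05) and *Furin* by 2.28 (SE 0.21, adjusted p = 4.6e-05). The same 3 genes were higher in PDGFRA+ and in PDGFRA- than in GAL1- cells, where 8.26% and 16.2% of all genes were higher. *Plau* had log2 fold changes of 3.25 and 3.37 there. All 3 were called lower when PDGFRA+ cells were set against GAL1+ cells, with log2 fold changes between −1.17 and −1.60. In that comparison 17.0% of all genes were lower. *Plat*, *Pcsk5* and *Pcsk7* were not called between GAL1+ and GAL1- cells, with log2 fold changes of −0.53, −0.12 and 0.25.

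Of 7 measured genes for proteins that bind PDGF or its receptors or resemble them, 6 were higher and 1 lower in GAL1+ than in GAL1- cells, where 28.9% of all genes were higher and 29.3% lower. The median log2 fold change of these 7 was 2.32. *Thbs1*, the matrix protein thrombospondin-1, rose by a log2 fold change of 3.83 (adjusted p = 4.9e-05), *Plaur*, the urokinase receptor, by 3.31 (adjusted p = 5.6e-05) and *Pdgfrl*, a receptor-like gene without a kinase domain, by 2.90 (adjusted p = 0.00295). The co-receptor *Nrp1* had a log2 fold change of 2.32 (adjusted p = 0.000220). The 1 gene that fell was *Cspg4*, the NG2 proteoglycan of oligodendrocyte precursors, which binds PDGF-A, at a log2 fold change of −1.73 (adjusted p = 0.00652). In PDGFRA+ over GAL1+ cells *Cspg4* was higher by 1.53 (adjusted p = 0.0207), and 3 genes were lower, *Thbs1* by a log2 fold change of −1.86, *Plaur* by −1.45 and *Nrp1* by −1.04. Of all genes, 20.9% were higher and 17.0% lower in that comparison. PDGFRA- over GAL1- cells gave 4 higher and none lower, against 16.2% and 6.88% of genes, with *Thbs1* at 3.46.

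Between GAL1+ and GAL1- cells the proximal signalling genes downstream of the receptors were called about as often as genes in general. Of 21 measured, 5 were higher, 8 lower and 8 not called in GAL1+ over GAL1- cells, which is 61.9% called against 58.2% of all genes. Their median log2 fold change was −0.17, against −0.03. The adaptors *Grb2* and *Shc1* rose by 1.98 and 1.26 (adjusted p = 5.1e-05 and 4.8e-05), and *Pik3r2*, a regulatory subunit of phosphoinositide 3-kinase, fell by 1.08 (adjusted p = 0.000120). PDGFRA+ over GAL1+ cells gave 3 higher and 5 lower (38.1% called, against 38.0% of genes), among them *Pik3r2* at 0.82, *Plcg1*, a phospholipase C, at 0.70 and *Grb2* at −1.11 (adjusted p = 0.00211, 0.00309 and 0.00287). PDGFRA- over GAL1+ cells gave 4 higher and 3 lower (33.3% called, against 20.1% of genes), with the Src-family kinase *Fyn* at 0.77 (adjusted p = 0.00903). Over GAL1- cells, PDGFRA+ cells had 2 higher and PDGFRA- cells 3, none lower (9.52% and 14.3% called, against 8.27% and 23.1% of genes), with *Stat5a* at 1.21 in the latter (adjusted p = 0.00409).

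Of 12 measured genes that restrain or end receptor signalling, 7 were higher and 3 lower in GAL1+ than in GAL1- cells (83.3% called, against 58.2% of all genes), with a median log2 fold change of 0.55. The 3 that fell were the Sprouty feedback inhibitors, *Spry1* with a log2 fold change of −2.08, *Spry2* of −2.02 and *Spry4* of −1.56 (adjusted p = 0.000160, 0.000336 and 0.000159). The 7 that rose were phosphatase and Cbl pathway genes, led by *Ptpn6*, the phosphatase SHP-1 known from blood cells, at 4.49 (adjusted p = 7.3e-05). *Ptpn1*, the phosphatase PTP1B, was at 1.64 (adjusted p = 0.000215). *Spry1* and *Spry2* were higher in PDGFRA+ than in GAL1+ cells by 1.84 and 1.70 (adjusted p = 0.00173 and 0.00300), and in PDGFRA- than in GAL1+ cells by 1.24 and 1.18 (adjusted p = 0.0156 and 0.0256). In those pairs *Ptpn6* was at −1.61 for PDGFRA+ over GAL1+ cells (adjusted p = 0.0266).

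Among 4 measured VEGF ligands, which share the cystine-knot fold, *Pgf* and *Vegfa* rose in GAL1+ over GAL1- cells, with log2 fold changes of 1.66 (adjusted p = 0.00154) and 0.60 (adjusted p = 0.0227). *Vegfc* was higher in PDGFRA+ than in GAL1+ cells by 1.85 (adjusted p = 0.0256), at a mean log2 CPM of 0.22 against −1.63, close to the floor. Among the 3 other class III receptor kinases, *Csf1r*, the receptor of macrophages, rose by 5.40 (adjusted p = 4.9e-05) and *Kit* fell by 0.77 (adjusted p = 0.0224) in GAL1+ over GAL1- cells. The calls there were 50% of the VEGF list and 66.7% of the class III list, near the 58.2% of all genes. *Flt3*, a receptor of blood progenitors and dendritic cells, was higher in PDGFRA- than in GAL1+ cells by 1.90 (adjusted p = 0.0194). In PDGFRA+ over PDGFRA- cells no gene of any of these lists was called, where 0 of all 18180 genes were called.

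**Figure D4:**
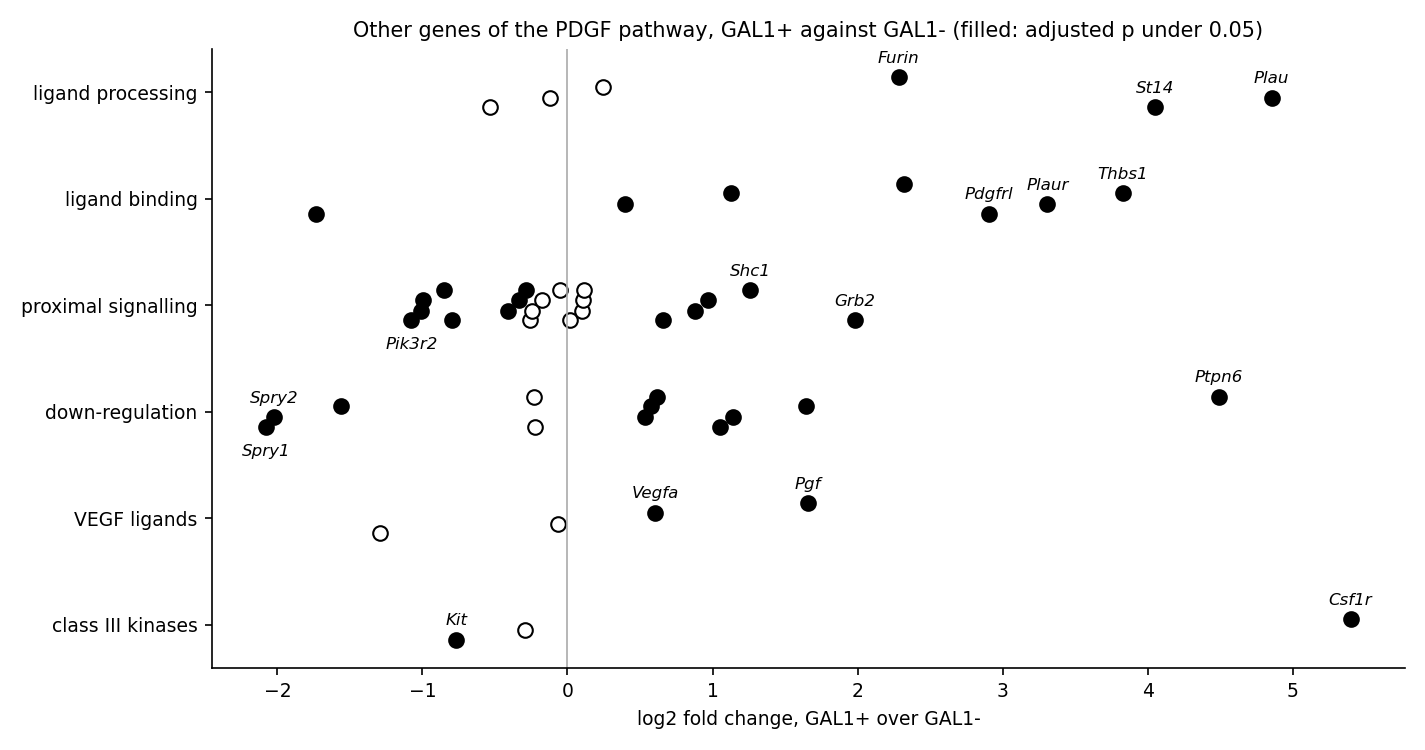
Log2 fold change of GAL1+ over GAL1- cells (horizontal axis) for the measured genes of 6 lists around the PDGF members (vertical axis); filled points had an adjusted p under 0.05 and the up to 3 largest called changes of each list are named. *Plau*, *St14*, *Thbs1*, *Ptpn6* and *Csf1r* lie to the right, between 3.83 and 5.40, and *Spry1* and *Spry2* to the left, at −2.08 and −2.02.

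The members' levels ran alongside those of several cell type marker lists at once. The counts of called markers in these lists are for GAL1+ over GAL1- cells, where 28.9% of all genes were higher and 29.3% lower, and each r is Pearson's r over the 12 libraries after each tumor's mean was subtracted. The 8 oligodendrocyte precursor markers summed to 3995 to 4745 CPM in GAL1- cells, 3091 to 4466 in PDGFRA+, 1240 to 3390 in PDGFRA- and 514 to 1458 in GAL1+ cells, and 8 of 8 were called lower. *Pdgfra* had an r of 0.94 with this sum. Its r was 0.96 with the sum of 5 neuron markers, which was far lower (27.4 to 34.2 CPM in GAL1- and 5.41 to 13.1 in GAL1+ cells) and had 2 of 5 called lower. With astrocyte markers, 2 of 6 called lower, the r was 0.79. The shares of these 2 lists called lower were not far from that of all genes.

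*Pdgfb* ran with all 3 lists of macrophages, microglia and leukocytes at large, with an r of 0.99 for each. The macrophage list, with 8 of 8 called higher, summed to 3938 to 5109 CPM in the GAL1+ libraries, 784 to 2124 CPM in the PDGFRA+ libraries, 623 to 3350 CPM in the PDGFRA- libraries and 34.3 to 119 CPM in the GAL1- libraries. The microglia list, 7 of 7 higher, summed to 1661 to 2282 CPM in the GAL1+ and 74.6 to 134 CPM in the GAL1- libraries. The pan-leukocyte list (8 of 8 called higher) had sums of 2780 to 4009 CPM in the GAL1+ and 76.1 to 205 CPM in the GAL1- population. With endothelial and neutrophil markers the r of *Pdgfb* was 0.97 and 0.93.

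*Pdgfrb* had an r of 0.98 with both the mural and the endothelial list and of 0.96 with both the macrophage and the pan-leukocyte list. The mural list, with 9 of 10 markers called higher, summed to 154 to 243 CPM in the GAL1+ libraries, 84.0 to 215 CPM in the PDGFRA+ libraries, 106 to 245 CPM in the PDGFRA- libraries and 36.6 to 52.1 CPM in the GAL1- libraries. The endothelial list, 9 of 10 higher, summed to 314 to 393 CPM in GAL1+ and 46.2 to 92.0 in GAL1- cells. *Pdgfd* had an r of 0.92 with it, and of 0.88, 0.86 and 0.84 with the macrophage, microglia and mural lists. The fibroblast list, 5 of 7 higher, summed to 570 to 1022 CPM in GAL1+ and 98.9 to 393 in GAL1- cells. No marker of these lists was at or under the floor in all 3 libraries of a population. The libraries behind each r share 3 tumors and 4 gates, most lists rose together, and the part of any of these cell types in a member's difference was not tested.

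Mature oligodendrocyte markers summed highest in PDGFRA- cells, at 837 to 1195 CPM, with 6 of 6 called lower in GAL1+ than in GAL1- cells, and their r with *Pdgfra* was 0.21. Of 4 neutrophil markers 2 were called higher, and their sum was 98.4 to 180 CPM in GAL1+ and 15.9 to 39.5 in GAL1- cells. T and NK cell markers had 2 of 7 called higher, and platelet markers, of a cell that carries PDGF-B, had 1 higher and 1 lower of 3.

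**Figure D5:**
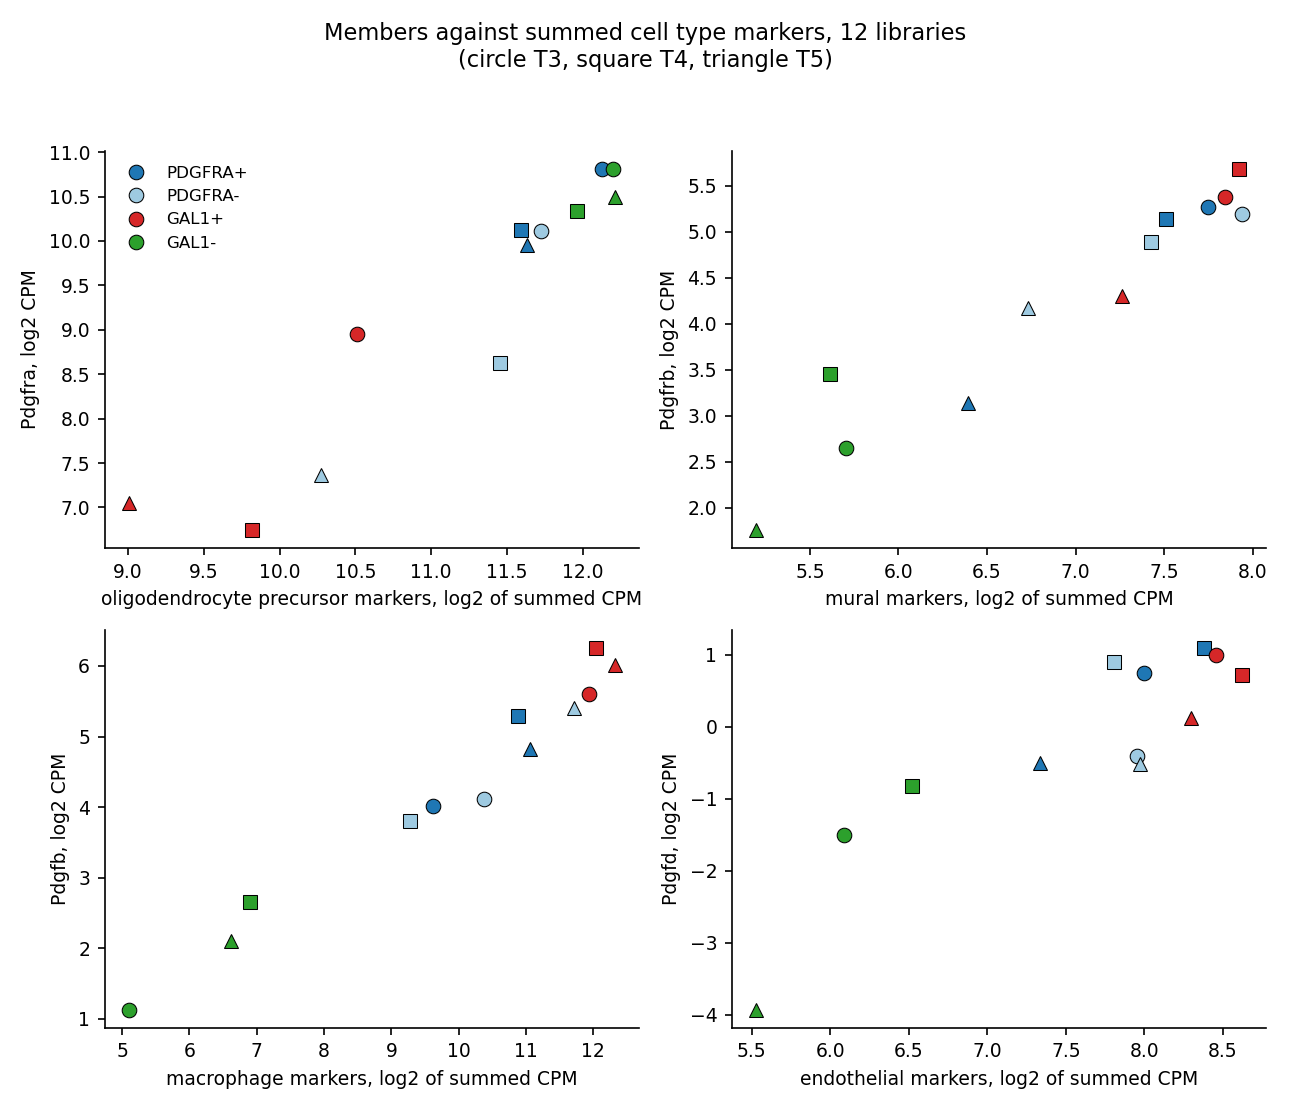
Log2 CPM of 4 members (vertical axes) against the log2 of the summed CPM of a marker list (horizontal axes) in the 12 libraries; colours are populations and shapes tumors. *Pdgfra* rises with oligodendrocyte precursor markers, and *Pdgfrb*, *Pdgfb* and *Pdgfd* rise with mural, macrophage and endothelial markers, with the GAL1- libraries at the low end of the last 3 panels. The points are not adjusted for tumor. After each tumor's mean was subtracted, the r of each pair is 0.92 to 0.99. Some other lists gave similar values, such as the neuron list for *Pdgfra* (r = 0.96).

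Among genes with a mean log2 CPM of at least 1, likeness to a member was taken as Pearson's r over the 12 libraries after removing each tumor's mean. Symbols of Gm followed by digits, or ending in Rik, were left out of this ranking. The profile nearest to *Pdgfra* was that of *Slc1a2*, a glutamate transporter (r = 0.999), followed by *Meox1*, *Noct*, *Lrp11* and *Cdh4* (r down to 0.994). *Pdgfrb* was closest to *Lst1* (r = 0.984), *Rgs5*, *Niban1*, *Ms4a4a* and *Nostrin*. *Pdgfa* was closest to *Hyou1* (r = 0.985), *Rbms2*, *Ttc12*, *Sec31a* and *Atp6v1e1*. *Pdgfb* was closest to *Slc7a8* (r = 0.998), *Cd180*, *Rnase4*, *Ly86* and *Blnk*, which had means of 0.14 to 2.80 in GAL1- and 5.71 to 8.42 in GAL1+ cells.

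*Pdgfc* had the weakest matches, with *Gab3* first (r = 0.923), then *Gdap2*, *Map11*, *Smpdl3b* and *Ap3s1-ps1*. *Pdgfd* was closest to *Flt4* (r = 0.965), *Esam*, *Pecam1*, *Kcp* and *Ccl8*. *Rgs5* belongs to the mural list and *Esam* and *Pecam1* to the endothelial list above, while *Lst1* and *Ms4a4a*, near *Pdgfrb*, are known from leukocytes and *Ccl8*, near *Pdgfd*, is a chemokine of macrophages. Among the members themselves *Pdgfra* ran against each of the other 5 (r from −0.78 to −0.58), and the nearest pair was *Pdgfrb* with *Pdgfb* (r = 0.948). These r values are descriptions over libraries that share tumors and sorts.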

How the data were processed

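EGFR+ cells from 3 GBMs were sorted into 4 populations, and libraries were made from 1 ng of RNA with the SMARTer Stranded Total RNAseq v3 Pico kit. Reads were trimmed with fastp, aligned with STAR in 2 passes to mm39 and counted on exons with featureCounts, multi-mapping reads as fractions; versions and strand setting are not given in the sources used here. The authors deposited log2 CPM from voom after TMM normalization, for genes above 1 CPM in at least 3 samples. Reads were recovered by taking each library's lowest value as 0 reads with an offset of 0.5, and 41.3% to 59.2% of them were whole within 0.01, so no count test was run. Reads of the human EGFR transgene were not measured separately. One item of the genotype is not reported here.

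Limma 3.58.1 in R 4.3.3 was fitted to all 12 libraries with population and tumor as terms and a variance trend, which left 6 residual degrees of freedom and added 3.49 from the prior. Populations were paired by the tumor number in the sample titles, and deviations of libraries from the same tumor correlated (18 pairs, r from 0.140 to 0.662). Named genes were the 6 members, up to 3 called genes with the largest change per pathway list and comparison, and the 5 genes most like each member. The last were ranked without symbols of Gm followed by digits or ending in Rik. *Nrp1*, *Spry4*, *Plat*, *Pcsk5* and *Pcsk7* were also named after their values were seen. The members and lists were chosen with earlier results of these data known. *Plg*, *Vegfd* and *Stmn2*, *Ly6g*, *Retnlg*, *Ppbp* and *Gp9* of the lists were not analysed here. Exon lengths were matched by symbol to GENCODE M21 for 16450 genes (90.5%), of the older build GRCm38. Promoters came from RefSeq for *Pdgfra*, *Pdgfa*, *Pdgfc* and *Pdgfd*. The fit was tested on 5 runs of simulated data with 200 genes changed in the PDGFRA+ libraries. PDGFRA+ over PDGFRA- recovered 40.4% of these genes, and 73.9% of those changed 4-fold. Of its calls, 7.16% were false. The simulated noise was independent between genes and held no shift in cell types, so these rates do not give the power of the real comparison. The alternatives were a fit without the tumor block or with the 2 populations compared alone, no trend, robust estimation, voom weights, an offset of 1 read, a filter at log2 CPM above 1, quantile normalization, median centring, and leaving out each tumor or library. Figures were drawn with matplotlib 3.10.9.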

Additional observations from a re-analysis of the deposited data

How the results depend on the processing

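Counts of called members between GAL1+ and GAL1- cells stayed at 4 or 5 under all 24 alternatives, of which the filter left *Pdgfd* out. In the main fit 58.2% of all genes were called in this comparison. In a fit with no replicate block, which ignores that the populations were paired by tumor, 4 members were called there, 1 each in PDGFRA+ over GAL1+, PDGFRA+ over GAL1- and PDGFRA- over GAL1- cells (from 3, 3 and 5), and 0 in PDGFRA- over GAL1+ cells (from 1). All genes called without the block numbered 3154, 612, 1444 and 725 in these 4 comparisons, from 6900, 1504, 4200 and 3652. With the 2 populations alone, PDGFRA- over GAL1- cells had 2 called members and 1328 called genes, PDGFRA- over GAL1+ cells 1893 and PDGFRA+ over GAL1- cells 3386 called genes. Quantile normalization gave 2 members in PDGFRA- over GAL1+ cells. Leaving out a tumor or library gave 1 to 3 members (2110 to 7887 genes) in PDGFRA+ over GAL1+ cells, 0 to 2 (0 to 5837) in PDGFRA- over GAL1+, 0 to 3 (0 to 1920) in PDGFRA+ over GAL1- and 2 to 5 (920 to 6021) in PDGFRA- over GAL1- cells. The lowest counts of members came without T3, T5, PDGFRA+ T3, GAL1+ T3 or GAL1+ T4 in the first of these, without T3, T4, PDGFRA- T3 or any GAL1+ library in the second, without T3 in the third, and without T3, T5 or GAL1- T5 in the last. No member was called in PDGFRA+ over PDGFRA- cells under any alternative, and 5 genes were called there without PDGFRA- T4. The cause of these shifts was not tested.

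Signs turned only for log2 fold changes that were not called. When a tumor or library was left out, PDGFRA+ over PDGFRA- cells gave −0.50 to 0.16 for *Pdgfrb*, −0.34 to 0.70 for *Pdgfb* and −0.33 to 0.20 for *Pdgfc*. PDGFRA+ over GAL1+ cells gave −0.58 to 0.14 for *Pdgfd*, PDGFRA- over GAL1+ cells −0.35 to 0.030 for *Pdgfa*, PDGFRA+ over GAL1- cells −0.67 to 0.090 for *Pdgfra* and −0.15 to 0.30 for *Pdgfc* and PDGFRA- over GAL1- cells −0.0092 to 0.42 for *Pdgfc*. Quantile normalization gave −0.12 and −0.010 for *Pdgfc* in the last 2, and median centring −0.042 in the first of them. The filter at a log2 CPM above 1 removed *Pdgfd*, whose 1.12 recovered reads in 1 library limit its values.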
